A study of Homo sapiens with 4 samples.

Results

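GDA, the gene of guanine deaminase, was examined together with 5 other genes of purine breakdown and salvage: XDH, PNP, ADA, HPRT1 and APRT. These 6 genes were taken by gene symbol from a table of 60048 human genes, and all 6 passed the filter on low values that left 39464 genes for testing. GDA was singled out because of its difference between the study's treatments, so its values in that contrast are given as a description, with no p-value. Nothing is read from whether GDA passed a threshold. The assay was EU-seq, a measure of nascent RNA, and the cells were HCT116, a human colorectal carcinoma line, of the genotype RAD21-mAC. In EU-seq the cells take up 5-ethynyl uridine (EU), and the RNA made during the labelling is captured through its ethynyl group and sequenced. RAD21 belongs to cohesin, a ring-shaped complex that holds chromatin in loops, and its tag lets auxin trigger degradation of the protein. Control cells received DMSO (2 libraries) and auxin cells were kept for 3 h in 0.5 mM indole-3-acetic acid (2 libraries). Both groups carry the same tagged RAD21 and were labelled with 0.5 mM EU for 20 min. By its title, the study asked about cohesin in pause release and processive elongation.

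Purines leave the cell's nucleotide pool by being stripped to free bases and then oxidised. ADA turns adenosine into inosine, PNP splits inosine and guanosine into sugar phosphate and the bases hypoxanthine and guanine, GDA deaminates guanine to xanthine, and XDH oxidises hypoxanthine and xanthine to uric acid. Salvage runs the other way: HPRT1 rebuilds IMP and GMP from hypoxanthine and guanine, and APRT rebuilds AMP from adenine. Guanine is thus a substrate of both GDA, which commits it to breakdown, and HPRT1, which returns it to the nucleotide pool.

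The table was deposited as read counts. From its lowest values it was taken to hold a scaled signal per gene and library rather than reads, so read depth is unknown. Totals on the deposited scale ran from 61135244 to 93113007, and the libraries were rescaled with trimmed means, so a shift of all nascent RNA together cannot be seen. Each library also held EU-labelled RNA of fly S2 cells, 20 µg mixed with 200 µg of human RNA before capture. Whether the deposited scale rests on that fly RNA is not given in the sources used here, so a global shift can be read from neither scale. The labels do not say whether the 2 libraries of a group came from separate cultures, so the p-values rest only on the spread between these libraries. In the limma fit used below, the spread of a gene is pooled with that of other genes. An SE or p-value is thus not the replicate spread of the named gene alone. Of 6 epithelial marker genes all were tested and none was called, with a summed signal of 57279 to 64114 in control and 56051 to 58673 in auxin. Within that sum CDH1 was higher with auxin, at a log2 fold change of 0.55 (limma, adjusted p = 0.0578). EPCAM, KRT8, KRT18, KRT19 and VIL1 were lower, between -0.37 and -0.18. Leukocyte markers, of which 3 of 4 were tested, summed to 82.9 to 87.3 in control and 82.0 to 92.1 in auxin. Hepatocyte markers, all 3 tested, summed to 40.9 to 42.4 and 53.5 to 69.6, endothelial markers, all 3 tested, to 268 to 306 and 315 to 387, and fibroblast markers, 3 of 4 tested and mostly COL1A1, to 648 to 795 and 933 to 1073. The part of these lists in the results below was not tested.

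GDA was higher with auxin in both libraries. Its scaled signal was 22119 and 23869.9 in control replicates 1 and 2 and 54377 and 63886 in auxin replicates 1 and 2. Both auxin libraries lay far above both control libraries. The control mean was 22995 ± 1238 and the auxin mean 59132 ± 6724 (SD, n = 2 each), a ratio of 2.57 and a log2 fold change of 1.36 (SE 0.11). Set pair by pair, each auxin library over each control gave 4 log2 ratios, 1.19, 1.30, 1.42 and 1.53. The replicates of a group differed by far less, with log2 differences of 0.11 between the controls and 0.23 between the auxin libraries. On the deposited scale, before any rescaling, the libraries read 22104 and 24214 in control and 44354 and 77264 in auxin, and the log2 fold change was 1.34; on that scale, where the auxin libraries lie further apart, GDA was not among the 55 genes that passed an adjusted p under 0.05. As a bulk measurement, the signal does not tell apart more cells transcribing a gene and more RNA per cell.

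In the limma fit over all genes a gene was called at an adjusted p under 0.05. The 1 of 6 genes called, GDA, stands beside 0.332% of all tested genes called higher, 0.400% called lower and 0.732% called in either direction, and since GDA was chosen on this contrast nothing is read from that count. With the replicate number as a block, a pairing the labels do not state, 10.8% of tested genes were called. GDA took 0.0283% and 0.0308% of all signal in the control libraries and 0.0726% and 0.083% in the auxin libraries. By the gain in scaled signal, GDA stood at rank 4 of the 39464 tested genes. By log2 fold change it stood at rank 301, because many genes of low signal had larger ratios, and at rank 62 once genes with a mean under 50 were set aside.

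**Figure D1:**
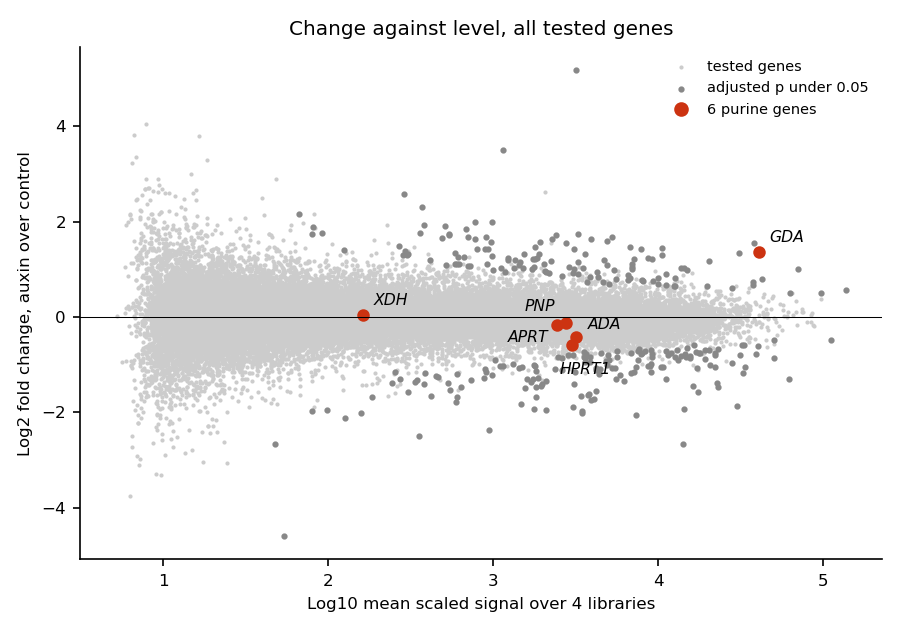
Log2 fold change of auxin over control against the log10 of the mean scaled signal for the 39464 tested genes, with genes at an adjusted p under 0.05 in dark grey and the 6 purine genes in red. GDA lies at 1.36 at the high end of the signal axis, and the other 5 genes lie between -0.59 and 0.04.

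GDA (ENSG00000119125, protein-coding, plus strand) spans chromosome 9 from 72114595 to 72252223 in GRCh38, the build hg38 of the submitters' notes, a span of 137629 bases with introns, and no other gene of the table overlaps it. RefSeq's annotation of GRCh38.p14 starts the gene at 72114608 and ends it at 72259869, 7646 bases further downstream than the table. RefSeq's promoter window for GDA lies before a start at 72149440, which is 34.8 kb inside the span of the table, so the value of the table is 1 sum over the whole span and does not separate that start from the 34.8 kb before it. The 250 bases before 2 RefSeq starts are shown, that of GDA as the gene singled out and that of HPRT1 as the member with the lowest log2 fold change. Capitals mark matches, on either strand, to 5 short motifs: the E-box CACGTG, the AHR core GCGTG, the GC box GGGCGG, the CCAAT box CCAAT and the TATA box TATAAA.
GDA, chr9:72149190-72149439, plus strand: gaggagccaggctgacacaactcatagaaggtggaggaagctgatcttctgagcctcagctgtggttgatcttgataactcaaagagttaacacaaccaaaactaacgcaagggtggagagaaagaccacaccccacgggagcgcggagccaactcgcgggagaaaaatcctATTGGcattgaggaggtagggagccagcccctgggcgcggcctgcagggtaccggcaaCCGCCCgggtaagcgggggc
HPRT1, chrX:134459915-134460164, plus strand: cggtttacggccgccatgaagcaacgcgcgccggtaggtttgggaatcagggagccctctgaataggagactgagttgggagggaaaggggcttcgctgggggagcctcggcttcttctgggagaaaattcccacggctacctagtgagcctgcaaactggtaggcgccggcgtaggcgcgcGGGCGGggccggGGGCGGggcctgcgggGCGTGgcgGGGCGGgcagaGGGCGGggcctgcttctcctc

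The GDA window holds 1 CCAAT box, read on the minus strand, and 1 GC box, also on the minus strand, and none of the other 3 motifs. The HPRT1 window holds 4 GC boxes and 1 AHR core, and neither a CCAAT box nor a TATA box. All 6 genes were matched to RefSeq windows of this length, with a GC content of 46.4% at XDH, 58% at GDA, 62% at PNP, 66% at APRT, 68.8% at HPRT1 and 80% at ADA. GC boxes were found in 5 of the 6 windows, all but XDH, against 42.3% of 27305 windows of the table. CCAAT boxes were found at GDA, PNP and XDH, against 33.0%, and the AHR core at ADA, APRT, HPRT1 and PNP, against 31.9%. No E-box or TATA box, present in 6.49% and 11.1% of windows, was found at any of the 6, which says only that these letters are not in these windows.

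Of the other breakdown genes, XDH was near the bottom of the range per length (2.00 units per kb in control). It read 152 and 169.9 in control and 171 and 158 in auxin, and the groups overlapped. By limma its log2 fold change was 0.04 (SE 0.24) at an adjusted p of 0.991. XDH (ENSG00000158125, minus strand, chromosome 2, 31334321 to 31414742) encodes the enzyme that uses the xanthine made by GDA.

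PNP (ENSG00000198805, plus strand, chromosome 14, 20469406 to 20477089), which feeds guanine to GDA, read 2763 and 3049 in control and 2669 and 2618 in auxin. Both auxin libraries lay just below both controls. The means were 2906 ± 202 and 2643 ± 36.5 (SD, n = 2 each), with a log2 fold change of -0.13 with an SE of 0.15 (limma, adjusted p = 0.881). Leaving out control replicate 2 took that value to -0.06. PNP overlaps AL355075.3 and is the 1 gene of the 6 that overlaps another gene of the table, where signal of overlapping genes is not separated.

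ADA (ENSG00000196839, minus strand, chromosome 20, 44619522 to 44651699) read 4423 and 2839.7 in control and 3296 and 2109 in auxin, so the groups overlapped. By limma its log2 fold change was -0.43 (SE 0.25) at an adjusted p of 0.644. The replicates of each group lay further apart than the group means did. Leaving out control replicate 1 gave -0.10 and leaving out auxin replicate 2 gave -0.11, whereas leaving out control replicate 2 gave -0.75 and leaving out auxin replicate 1 gave -0.74.

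Of the salvage genes, HPRT1 (ENSG00000165704, plus strand, chromosome X, 134460165 to 134500668) had the lowest fold change of the 6. It read 3113 and 4159 in control and 2132 and 2693 in auxin, so the higher auxin library lay below the lower control library. The means were 3636 ± 739.6 and 2412 ± 397 (SD, n = 2 each), with a log2 fold change of -0.59 (SE 0.18), which did not pass the threshold (limma adjusted p = 0.242). With 1 library left out it ran from -0.38 (control replicate 2) to -0.79 (control replicate 1). For the 2 genes whose enzymes compete for guanine, the nascent RNA signal thus had log2 fold changes of 1.36 at GDA and -0.59 at HPRT1. That of GDA ran from 1.24 to 1.48 with 1 library left out. The difference between the genes was not tested, and no enzyme was measured.

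APRT (ENSG00000198931, minus strand, chromosome 16, 88809339 to 88811928) read 2582 and 2597 in control and 2486 and 2140.3 in auxin. Both auxin libraries were below the controls, which lay within 0.01 of each other on the log2 scale. By limma its log2 fold change was -0.17 (SE 0.15) at an adjusted p of 0.846. It was -0.06 when auxin replicate 2 was left out and -0.27 when auxin replicate 1 was. In all, apart from GDA, which was chosen on this contrast, the groups did not overlap in 3 genes, PNP, HPRT1 and APRT. All 3 were lower with auxin, and XDH and ADA overlapped. Of all tested genes, 18.6% had both auxin libraries higher and 19.6% had both lower.

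**Figure D2:**
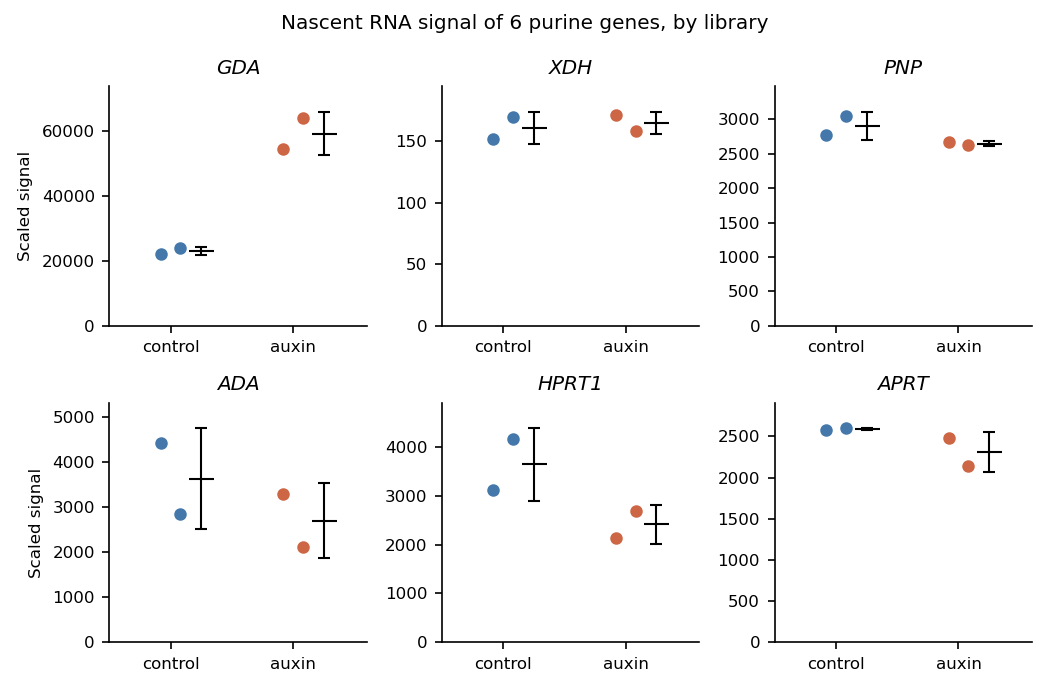
Scaled signal of the 6 genes in each library (points) with the mean and SD of each group (n = 2), each panel on its own axis from 0. GDA goes from 22119 and 23869.9 in control to 54377 and 63886 in auxin, HPRT1, PNP and APRT have both auxin points below both control points, and XDH and ADA overlap.

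Levels can be set against each other per length of the span. In control, APRT had 999.8 ± 4.32 units of scaled signal per kb, PNP 378 ± 26.3, GDA 167 ± 8.99, ADA 113 ± 34.8, HPRT1 89.8 ± 18.3 and XDH 2.00 ± 0.159 (SD, n = 2 each). Only ADA and HPRT1 overlapped in this order, ADA with 88.3 to 137 and HPRT1 with 76.9 to 103 per kb. Among 17767 tested protein-coding genes these levels stood at the percentiles 98.5 for APRT, 90.0 for PNP, 72.9 for GDA, 63.3 for ADA, 57.8 for HPRT1 and 13.2 for XDH. With auxin, GDA lay above PNP: GDA had 395 and 464 per kb and PNP 347 and 341, and APRT was again highest with 959.9 and 826. ADA (65.5 and 102) and HPRT1 (52.6 and 66.5) again overlapped, and XDH stayed lowest with 1.97 and 2.13.

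The surroundings of GDA were described next, because cohesin organises chromosomes into domains that can hold several genes. Within 1000 kb of GDA on either side 17 other genes were tested, and 1 was called, AL135924.2, beside the 0.332% of all tested genes called higher. This lncRNA gene (plus strand, chromosome 9, 72257336 to 72257783) begins 5.11 kb past the end of GDA in the table and lies inside the longer GDA of RefSeq, which ends 2086 bases after it. It read 159 and 189 in control and 385 and 488 in auxin. The groups were well apart, with a log2 fold change of 1.31 with an SE of 0.23 (limma, adjusted p = 0.0348), close to the 1.36 of GDA. That call was lost without control replicate 1 (adjusted p = 0.0724), control replicate 2 (0.0612) or auxin replicate 2 (0.116), without the filter on low values (0.0537), with a mean of at least 50 (0.0503) and on the deposited scale (0.466). The log2 fold change stayed between 1.14 and 1.49 in those fits and the others run. Whether its signal belongs to the transcript of GDA cannot be told apart in this table.

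Beyond AL135924.2, the nearest protein-coding genes did not pass the test. Upstream, C9orf57, 41.9 kb away, read 76.3 and 76.7 in control and 68.7 and 95.4 in auxin, and C9orf85, 141 kb away, had a log2 fold change of 0.02 with an SE of 0.15 (limma, adjusted p = 0.992). The groups overlapped in both. Downstream, ZFAND5, which encodes a zinc finger protein and lies 99.2 kb from GDA, read 4867 and 4738 in control and 4923 and 3612 in auxin, with a log2 fold change of -0.19 with an SE of 0.16 (limma, adjusted p = 0.835). TMC1, a gene of the mechanotransduction channel of inner ear hair cells, begins 269 kb from GDA and read 737 and 636 in control and 1021 and 970.2 in auxin. Both auxin libraries of TMC1 were higher, with a log2 fold change of 0.54 with an SE of 0.18 (limma, adjusted p = 0.289). The pseudogene BTF3P4, only 6.28 kb upstream of GDA and on the other strand, had a log2 fold change of -0.17 (SE 0.32), and LINC01504, 53.2 kb downstream, one of 0.16 (SE 0.16); these 2 are named after their values were seen. Of the 17 neighbours, 3 had both auxin libraries above the controls (AL135924.2, LINC01504 and TMC1) and 2 had both below, beside 18.6% and 19.6% of all tested genes. As counted, the neighbours were near the background. AL135924.2 lies inside the GDA of RefSeq, so it cannot be counted as independent of GDA.

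**Figure D3:**
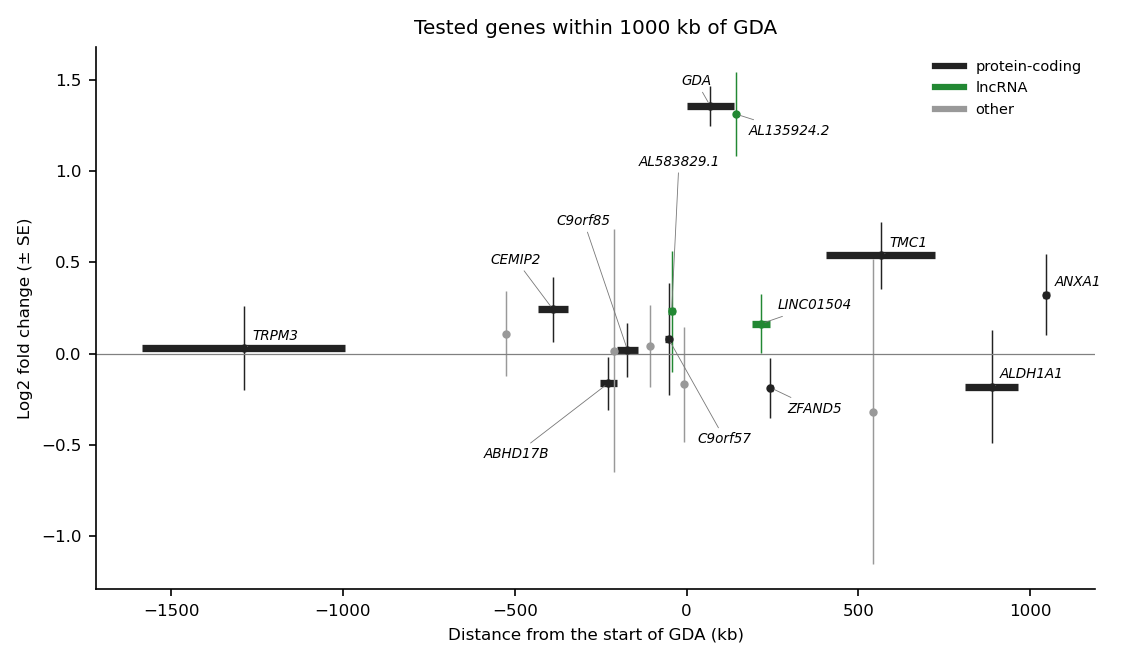
Log2 fold change (± SE) of the 18 tested genes within 1000 kb of GDA, drawn as bars over their spans, against the distance from the start of GDA in kb. GDA (1.36) and AL135924.2 (1.31) stand above the rest, which lie between -0.32 and 0.54.

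The 5 protein-coding genes whose pattern over the 4 libraries was most like that of GDA were found by the root mean square distance between log2 profiles centred on their own mean, over the 15993 genes whose mean reached 50. They were C2orf50 (distance 0.0487), OLFM1 (0.0503), TFAP2A (0.0641), ATXN1 (0.0651) and STX11 (0.0682). ATXN1, the gene of ataxin-1 on chromosome 6, overlaps ATXN1-AS1 and read 16322 and 18573 in control and 38195 and 50233 in auxin. TFAP2A, a transcription factor gene that overlaps 2 antisense genes, read 3499.6 and 3651 in control and 9393 and 10368 in auxin. The ratios of the means of all 5 ran from 2.48 to 2.76. The measure picks genes of a like rise, so their rise is not a separate result, and with profiles divided by their SD 0 of these 5 were among the nearest 5.

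The rest of purine metabolism was described by 9 lists with 66 genes, of which 63 passed the filter. Apart from GDA, which was chosen on this contrast, none of them passed the threshold. Of the 63, 24 had a log2 fold change above 0 and 39 below it. The groups did not overlap in 10 that were higher, GDA among them, and 25 that were lower, against 18.6% and 19.6% of all tested genes. The median log2 fold change was -0.13 over the lists and 0.0089 over all tested genes. The members of one list share a pathway and were not treated as replicates. Some genes named below overlap other genes of the table, where signal is not separated. They include AMPD2, NT5C2, MTAP, ADK, PPAT, ADSL, GMPS, IMPDH2, GMPR, GPHN, SLC43A3, SLC29A2, SLC2A9 and UPB1.

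Breakdown of purines was covered by 15 genes, GDA, XDH, PNP and ADA among them, and 14 were tested. The remaining NT5C1A, a nucleotidase gene, was listed at 4.36 to 14.9 on the deposited scale. Besides GDA no gene passed the limma threshold. At an unadjusted p under 0.05 there were 2 higher and 3 lower genes, against 4.75% and 5.47% of tested genes. GDA, chosen on this contrast, was among the 2 higher. The list's median log2 fold change was -0.05. The genes named in the rest of this paragraph were chosen after their values were seen. NT5E, the ectonucleotidase that makes adenosine from AMP outside the cell, read 6203 and 6906 in control and 8696 and 9649 in auxin, with a log2 fold change of 0.48 with an SE of 0.13 (limma, adjusted p = 0.158). The AMP deaminases, which turn AMP into IMP, lay lower: AMPD3 had a log2 fold change of -0.53 (adjusted p = 0.145), AMPD2 of -0.46 (0.437) and AMPD1, at a mean signal of 37.2 in control, of -0.91 (0.511). The cytosolic nucleotidase NT5C2, which acts on IMP and GMP, read 18067 and 17139 in control and 13005 and 13604 in auxin (log2 fold change -0.40, adjusted p = 0.166).

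Of the 6 salvage genes, all tested, none passed the limma threshold. At an unadjusted p under 0.05, 2 were lower, against 5.47% of tested genes, and 4 had both auxin libraries below both controls, against 19.6%. The median log2 fold change was -0.22, and -0.13 when control replicate 2 was left out. The smallest p was that of MTAP, whose enzyme releases adenine from methylthioadenosine and so supplies APRT. MTAP read 26234 and 33899 in control and 19330.2 and 22997 in auxin, a log2 fold change of -0.50 with an SE of 0.14 (limma, adjusted p = 0.181). Without auxin replicate 2 MTAP passed the threshold, at -0.63 (adjusted p = 0.0069), while leaving out control replicate 2 gave -0.32 (adjusted p = 0.512) and leaving out auxin replicate 1 gave -0.37 (0.341). ADK, the adenosine kinase gene, read 28142 and 29164 in control and 25514 and 29260.4 in auxin, with the groups overlapping, and is named after its values were seen.

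PRPP, the activated ribose that HPRT1, APRT and the first enzyme of de novo synthesis all use, is made by PRPS1 and PRPS2. The smallest p of this list of 4 was that of PRPS2, which read 3159 and 3704 in control and 2209 and 2507 in auxin. Its auxin libraries lay below both controls, with a log2 fold change of -0.54 with an SE of 0.16 (limma, adjusted p = 0.197). No gene of the list passed the threshold and 1 was lower at an unadjusted p under 0.05, against 5.47% of tested genes. The list's median was -0.15, and -0.07 when auxin replicate 1 was left out.

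De novo synthesis of IMP showed the most even pattern of the lists: all 6 of its genes had both auxin libraries below both control libraries, where 19.6% of all tested genes did. None passed the limma threshold, and all 6 were lower at an unadjusted p under 0.05, where 5.47% of tested genes were. Their median log2 fold change was -0.47, with a range from -0.62 to -0.33. The members of this list were given with earlier results of these data known, so the pattern is a description. PPAT, the amidotransferase that takes the first committed step, had the smallest p. It read 7576 and 8739 in control and 5589 and 5000.3 in auxin, with means of 8158 ± 823 and 5295 ± 416 (SD, n = 2 each). By limma its log2 fold change was -0.62 (SE 0.14) at an adjusted p of 0.0856. With 1 library left out that value ran from -0.52 (control replicate 2) to -0.72 (control replicate 1).

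The other 5 genes of the list act after PPAT. PFAS, the formylglycinamidine synthase gene, read 5940.4 and 6432 in control and 4665 and 4158 in auxin (log2 fold change -0.49). GART, whose protein carries several of the early activities, read 5102 and 6469 against 4127 and 4176 (-0.47). PAICS, which joins a carboxylase and a synthetase, read 9709.6 and 12976 against 7445 and 8812 (-0.47). In each of these the libraries of the groups were apart, by the least margin in PAICS, where the lower control came near the higher auxin value. ADSL, the lyase that also serves the step from IMP to AMP, read 6174 and 6784 against 5044 and 5261 (-0.33). ATIC, which closes the ring to IMP, read 8827 and 8912 against 6874 and 7128 (-0.34). The limma adjusted p of these 5 lay between 0.18 and 0.397. PPAT and PAICS are neighbours on chromosome 4 that point away from each other, with starts 645 bases apart in the table, and so are not independent members. The list's median log2 fold change ranged from -0.58 to -0.32 when 1 library was left out, and was below 0 under each of the scalings tried, from -0.49 to -0.43 over the other settings.

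**Figure D4:**
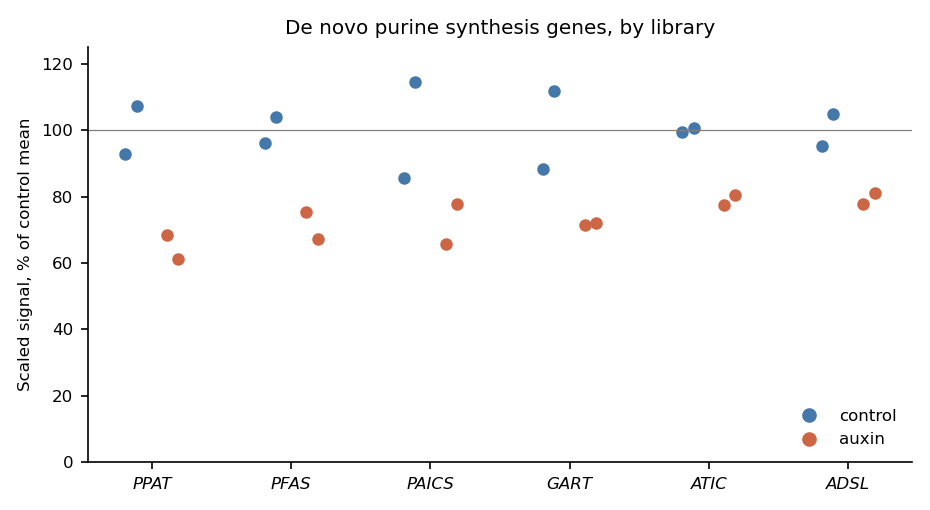
Scaled signal of the 6 genes of de novo purine synthesis in each library, as a percentage of the gene's control mean, on an axis from 0. In all 6 genes both auxin points lie below both control points, with changes of the mean from -35.1% at PPAT to -20.5% at ADSL.

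From IMP the pathway splits towards AMP and GMP. GMPS, the last enzyme on the way to GMP, had the smallest p of this list of 7 and read 9287 and 9889.7 in control and 6782 and 7207 in auxin. Both auxin libraries lay below the controls, with a log2 fold change of -0.46 with an SE of 0.12 (limma, adjusted p = 0.163). No gene of the list passed the threshold, 2 were lower at an unadjusted p under 0.05, against 5.47% of tested genes, and the median was -0.23. Leaving out auxin replicate 1 gave a median of -0.40, leaving out control replicate 1 one of -0.05, and leaving out auxin replicate 2 one of -0.02. IMPDH2, the dehydrogenase that commits IMP to GMP, read 5692 and 6015 against 5866 and 5651 and overlapped between the groups. GMPR, which turns GMP back into IMP, had a log2 fold change of 0.27 (adjusted p = 0.648); these last 2 are named after their values were seen.

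XDH needs a molybdenum cofactor, as does AOX1, the aldehyde oxidase gene. Of the 5 genes of its assembly, GPHN, the gephyrin gene, had the smallest p, with 16336 and 16334 in control and 12959 and 14369.5 in auxin. By limma its log2 fold change was -0.26 (SE 0.11) at an adjusted p of 0.46. No gene of the list passed, and 1 was lower at an unadjusted p under 0.05, against 5.47% of tested genes. The list's median was -0.16, and with control replicate 1 or auxin replicate 2 left out it was -0.09 or -0.08.

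Transporters of nucleosides and bases did not share a direction: of 8 genes 3 had both auxin libraries lower and 2 both higher, against 19.6% and 18.6% of tested genes, and the median log2 fold change was 0.02, with -0.21 without control replicate 2, -0.15 without auxin replicate 1 and 0.10 without auxin replicate 2. None passed the limma threshold in the unblocked fit of all libraries, and 3 were lower at an unadjusted p under 0.05, against 5.47% of tested genes. SLC29A1, the equilibrative transporter ENT1, had the smallest p and read 5909.9 and 6193 in control and 4114 and 4062 in auxin (log2 fold change -0.57, SE 0.13; adjusted p by limma 0.1). SLC43A3, a transporter of purine bases, read 4078 and 5022 against 2228 and 3517 (log2 fold change -0.69, limma adjusted p = 0.225). Set pair by pair, its log2 ratios of auxin over control ran from -1.17 to -0.21. SLC29A2 had a log2 fold change of -0.50 (limma, adjusted p = 0.225), with ratios by pair from -0.78 to -0.22. SLC43A3 and SLC29A2 are named after their values were seen.

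Urate transport was covered by 8 genes, of which 6 were tested and none passed in the unblocked fit of all libraries. SLC22A12 and SLC17A3 were listed at 2.08 to 6.79 and 2.54 to 16.3 on the deposited scale. SLC2A9, the gene of the urate transporter GLUT9, had the smallest p of the list, with 4902 and 4008 in control and 6831 and 7747 in auxin. Both auxin libraries lay above the controls, a ratio of the means of 1.64 and a log2 fold change of 0.71 with an SE of 0.15 (limma, adjusted p = 0.0679). For SLC2A9 the log2 fold change rose to 0.87 with control replicate 1 left out and to 0.81 with auxin replicate 1 left out. It fell to 0.57 when control replicate 2 was dropped and to 0.62 when auxin replicate 2 was. ABCC4, an efflux pump gene named after its values were seen, had a log2 fold change of -0.45 (limma, adjusted p = 0.234). Set pair by pair, its log2 ratios of auxin over control ran from -0.73 to -0.16. At an unadjusted p under 0.05 there were 1 higher and 1 lower gene, against 4.75% and 5.47% of tested genes, and the median was 0.06.

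Breakdown of pyrimidines, the other class of bases, was listed for comparison with 7 genes. None passed the limma threshold. None had an unadjusted p under 0.05, where 4.75% of tested genes were higher and 5.47% lower. The groups overlapped in 6 of the 7, beside 24378 of the 39464 tested genes. The smallest p was that of UPB1, which makes beta-alanine, with 57.6 and 69.6 in control and 90.0 and 95.4 in auxin (log2 fold change 0.54, SE 0.30; adjusted p by limma 0.616). The list's median log2 fold change was 0.10.

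**Figure D5:**
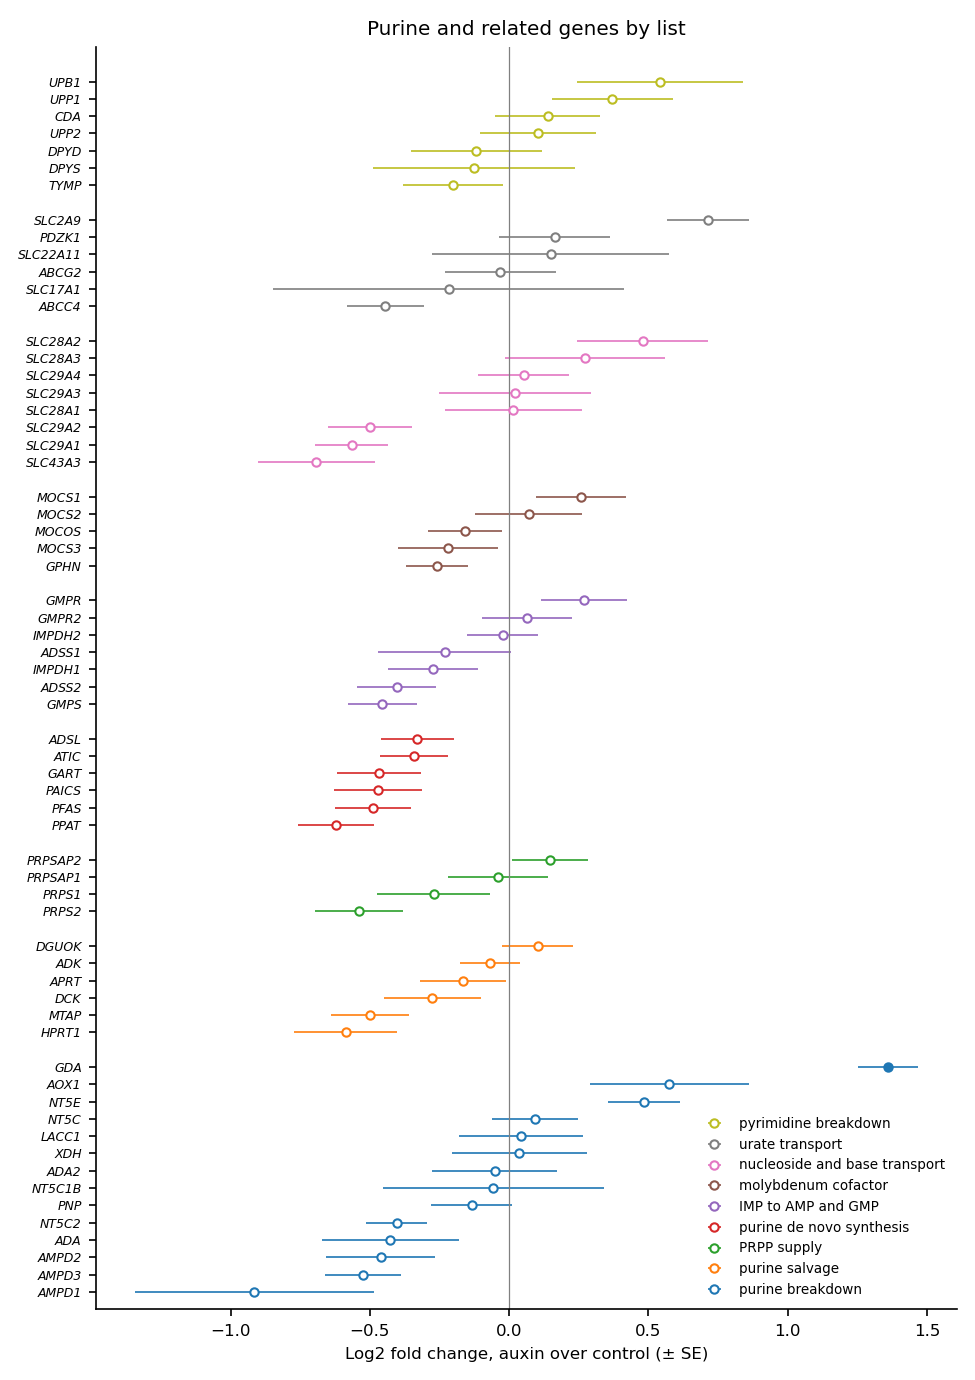
Log2 fold change of auxin over control (± SE) of the 63 tested genes of the 9 lists, coloured by list, with a filled point for an adjusted p under 0.05. GDA, which was chosen on this contrast, is the 1 filled point, at 1.36. The 6 genes of de novo synthesis lie together between -0.62 and -0.33.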

How the data were processed

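The authors deposited 1 table with a signal per gene span and library. From its lowest values each library was taken to have been multiplied by a factor. Such a factor is not given in the sources used here, nor whether it came from the fly RNA mixed into every library. Trimmomatic 0.39, Bowtie2 2.4.5, deepTools 3.5.1 and the builds hg38 and dm6 are named, with no role, per the submitters' processing notes. The values were not treated as reads: genes spanning at least 10 kb held 2 or 3 of the smallest step far more often than 1, as coverage summed over bins would give. A control column with a misspelt name was taken as control replicate 2 from its number.

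Genes with a value equivalent to 10 in at least 2 libraries and a sum of at least 15 were kept. Scaling used TMM factors (30% and 5% trimmed). A pseudocount of 1 was added before taking log2, and limma 3.58.1 in R 4.3.3 (lmFit, eBayes with trend) compared auxin with control, adjusted by Benjamini and Hochberg's method over all tested genes at 0.05; this scale understates the change of low genes. The procedure was tested on simulated data. The 6 genes and the lists were chosen with earlier results of these data known. Named were the 6 genes, of each list the called genes and that with the smallest p, around GDA the overlapping genes, the 2 nearest protein-coding genes on each side and any called gene, and the 5 genes most like GDA. Promoter sequences are from RefSeq, GRCh38.p14; 37808 of its symbols matched the table and 99.8% of these overlapped the span of the same symbol. Sequences were handled in Python 3.11.15 (pandas 2.3.3), and matplotlib 3.10.9 drew the figures.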

Additional observations from a re-analysis of the deposited data

How the results depend on the processing

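The log2 fold change of GDA ranged from 1.34 to 1.39 over median-ratio, library-total and deposited scaling, pseudocounts of 0.1 and 10, no filter, a mean of at least 50 and the replicate block, and from 1.24 to 1.48 with 1 library left out. The count of called genes over the whole table, 289, was 55 on the deposited scale, 82 at an adjusted p under 0.01 (fewer by construction) and 4273 with the replicate block, and ran from 132 (without control replicate 2) to 681 (without auxin replicate 1) with 1 library left out, where the lone library of a group is assumed to vary like the others; the cause was not tested. The log2 fold change of XDH, 0.04, changed sign without control replicate 1 (-0.036) and without auxin replicate 1 (-0.012), and reached 0.117 without control replicate 2. Small list medians also changed sign: without control replicate 2 that of purine breakdown was 0.0093 and that of urate transport -0.11, and without control replicate 1 that of pyrimidine breakdown was -2.9e-05 (0.0037 without auxin replicate 2).

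No label ties the replicate numbers to a common day, and with 2 pairs the data cannot settle it; the replicate differences of control and auxin correlated across genes with a Pearson's r of 0.231, and of 0.462 over genes with a mean of 50 or more. With the replicate block 10.8% of tested genes were called, ADA (limma adjusted p = 0.00267) and HPRT1 (8.88e-06) among them. Of the breakdown genes 7 of 14 were called, and GDA, chosen on this contrast, was among the 7. All 6 de novo genes were called (PPAT, 1.02e-07), as were 2 of 6 salvage genes (with MTAP, 4.61e-06) and 1 of 4 PRPP genes (PRPS2, 6.76e-05). Of the genes from IMP 2 of 7 were called (GMPS, 0.000187, and ADSS2, 0.00485). Of the transporters 4 of 8 were (SLC29A1, 4.27e-06, SLC43A3, 2.54e-08, SLC29A2, 3.67e-05, and SLC28A2, 0.00991). Also called were 2 of 6 urate genes (SLC2A9, 8.1e-10, and ABCC4, 7.8e-05) and 1 of 7 pyrimidine genes (UPP1, 0.0161). None of the cofactor genes was called. Of the neighbours, TMC1 (0.00268) and ANXA1 (0.0249) were called beside AL135924.2. In the blocked fit the limma prior degrees of freedom were infinite, so each variance came from the trend over all genes and not from the gene's own replicates. In the main fit they were 8.23, so each variance mixed the gene's own spread with that trend. PNP, XDH and APRT were not called in any fit run. Read depth being unknown, the stated precision rests on 2 libraries a group and on variances pooled over genes.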
